A study of Mus musculus with 8 samples.

Results

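The regions described here are 530 H3K27ac peaks of mouse colon cancer organoids whose level was at least 2 times as high in Gata6 knockout as in control organoids. They were chosen from the 20868 peaks of the table that lie off chromosome 5, out of 22731 peaks in all. Each level is a count per 1000000 reads in peaks off chromosome 5 (CPM). A peak was taken when its mean CPM over the 3 knockout libraries was at least 2 times its mean over the 3 control libraries, when the lowest knockout library lay above the highest control library, and when the mean of all 6 libraries was at least 10 CPM. Chromosome 5, whose peaks as a whole are lower in the knockout, was left out. Since these levels chose the peaks, they are given as a description, without a test of the difference between the groups.

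All groups are AKP colon cancer organoids, with C57Bl6 given as the recipient mice. The genotypes are AKP for control and Gata6KO_AKP for knockout. Positions are those of the mm9 genome build. The labels do not spell out AKP. They state neither whether the knockout line is 1 clone nor whether the replicates were separate cultures, so differences between libraries of a group may be technical. The method was CUT&RUN, in which an antibody guides a nuclease to a chromatin mark and the DNA cut free is sequenced. The series also has 1 H3K4me3 and 1 IgG library of control organoids, which were not analysed here, so no background was subtracted.

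H3K27ac, acetylation of lysine 27 of histone H3, is laid down by the acetyltransferases p300 and CBP and marks active promoters and enhancers. Long stretches of neighbouring acetylated elements are common at genes of cell identity. GATA6 is a zinc finger transcription factor that binds GATA sequences and helps to maintain the epithelial programme of the gut and other endodermal organs. Colon cancer organoids are epithelial cells grown in matrix. The levels at Gata6 and at genes that mark the colon epithelium were not analysed here, so neither checked the labels.

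Between 4611968 and 6306330 reads fell in peaks off chromosome 5 in each control library, and between 5011965 and 5652199 in each knockout library. The 530 gained peaks took 0.825%, 0.843% and 0.835% of these reads in control replicates 1, 2 and 3. In knockout replicates 1, 2 and 3 they took 2.01%, 1.99% and 1.98%. The 3 libraries of a group thus lay close together, and the median gained peak stood at 11.6, 11.7 and 11.7 CPM in the control libraries against 28.3, 27.5 and 27.3 CPM in the knockout libraries. No single library supplied the high or the low end: each knockout library was the highest of its group at 160 to 199 of the 530 peaks, and each control library the lowest of its group at 162 to 198.

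Of the 20868 peaks, 20835 reached a mean of 10 CPM, and 533 of these were at least 2 times as high in the knockout. The requirement that the groups be apart removed only 3, on chromosomes 16, 4 and X. The 530 left are 2.54% of the peaks that reached 10 CPM. All 530 were called higher by edgeR's quasi-likelihood test over all peaks off chromosome 5 (Benjamini-Hochberg adjusted p under 0.05), which called 11.2% of all peaks higher. The rule used the same contrast, so nothing is read from this count. Groups apart with the knockout above were found at 17.7% of all peaks of at least 10 CPM, and the mirrored rule for a 2-fold loss found 76 peaks, 0.365% of them.

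**Figure D1:**
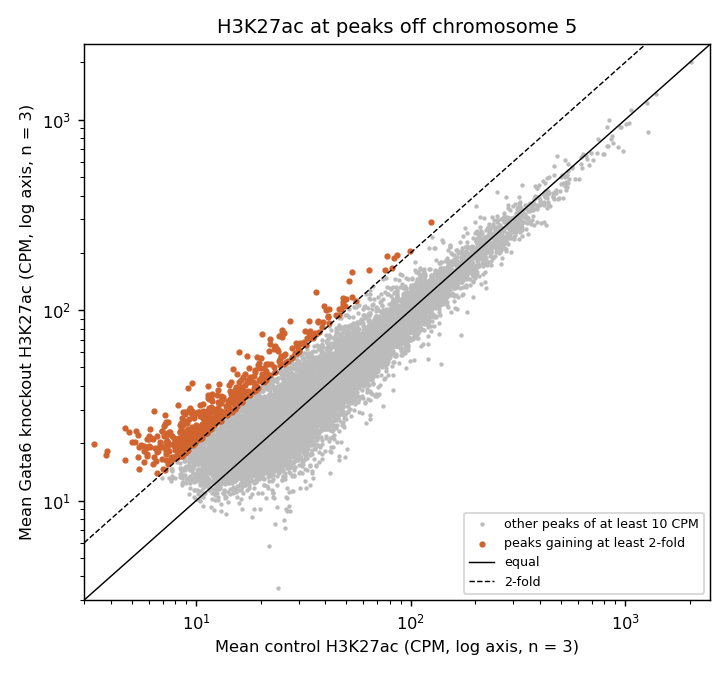
Mean H3K27ac in 3 control libraries (horizontal, CPM, log axis) against the mean in 3 Gata6 knockout libraries (vertical, CPM, log axis) for the 20835 peaks off chromosome 5 with a mean of at least 10 CPM. The 530 gained peaks (orange) lie on or above the dashed 2-fold line, mostly at the low end of the control scale, where their median was 11.4 CPM.

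Most gains were near the threshold and began from a low control level. At a given mean level, a 2-fold gain requires a control level below that mean. Peaks with a control mean under 10 CPM passed the 10 CPM limit only through the knockout libraries. The comparison of these levels with all peaks is therefore a description. The ratio of the means had a median of 2.31 and ran from 2.00 to 5.98. It was under 2.5 at 354 peaks, at least 3 at 69 and at least 4 at 11. The median control level was 11.4 CPM, while the median over all peaks of at least 10 CPM was 30.6 CPM. In the knockout the gained peaks had a median of 27.7 CPM, against 30.4 CPM over all peaks. Only 47 of the 530, or 8.87%, began at or above the control median of all peaks, and 220, or 41.5%, stood at or above the knockout median of all peaks.

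Per length, the gained peaks were sparsely acetylated in control organoids. Their median density was 5.66 CPM per kb in control, where all peaks of at least 10 CPM had a median of 11.8 CPM per kb, and 4 of the 530 reached that value. In the knockout their median was 13.7 CPM per kb, against 11.9 CPM per kb over all peaks, and 373, or 70.4%, reached that value. These densities contain the levels that chose the peaks and are given without a test.

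The share of peaks that gained 2-fold fell steeply with the mean level. Of peaks between 10 and 15 CPM, 132 of 876 or 15.1% were gained, of those between 15 and 20 CPM 151 of 3080 or 4.90%, and of those between 20 and 30 CPM 123 of 6291 or 1.96%. At 100 CPM or more, 9 of 1794 peaks, or 0.502%, were gained. The share of mirrored 2-fold losses went from 0.571% between 10 and 15 CPM to 0.0557% at 100 CPM or more. The weakest class as a whole leaned upward, with a median ratio of 1.24 over its 876 peaks, while the median ratio was 0.968 to 0.987 in the classes from 20 CPM up. When the scaling was allowed to follow the mean count (a loess curve per library, called trended offsets below), 350 peaks met the rule, of which 342 were among the 530, and the class between 10 and 15 CPM held 28 in place of 132, the class between 15 and 20 CPM 73 in place of 151. From 20 CPM up the numbers by class were close: 121 in place of 123, 79 in place of 76, 39 in both and 10 in place of 9. The number of weak gains therefore depended on the scaling.

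**Figure D2:**
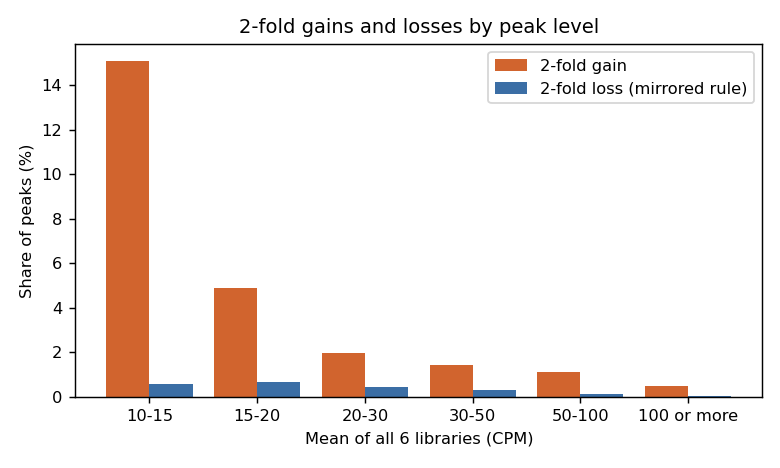
Share of peaks (vertical, %) in 6 classes of mean level (horizontal, CPM over all 6 libraries) that gained at least 2-fold (orange) or lost at least 2-fold by the mirrored rule (blue). Gains make up 15.1% of the weakest class and 0.502% of the strongest, and exceed losses in each class.

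Peak width, which the rule did not use, was modest under the main scaling. The median width was 2170 bp against 2678 bp over all peaks of at least 10 CPM, and 365 of the 530 were narrower than that median. In 5 classes of equal size by width, gained peaks made up 4.53% of the narrowest class (106 to 1836 bp), then 3.10%, 2.28% and 1.70%, and 1.10% of the widest class (4593 to 95585 bp). With trended offsets this order was lost: the 350 peaks made up 1.46%, 1.94%, 2.06%, 1.80% and 1.13% of the 5 classes, from the narrowest to the widest, and their median width was 2620.5 bp. Weak peaks were narrow in general, with a median width of 1432.5 bp over all peaks between 10 and 15 CPM and 9892 bp over those at 100 CPM or more. The separate parts of level and width were not tested. Width differed with level among the gained peaks too: those with a mean of at least 20 CPM had a median width of 2962 bp.

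The gains were measured again in libraries that had no part in choosing them. The same rule was applied to the 4 libraries of 2 replicate numbers, and the peaks it chose were read in the control and the knockout library of the remaining number. Without replicate 1 it chose 557 peaks, without replicate 2 563 and without replicate 3 543. Their median ratio was 2.32, 2.35 and 2.35 in the libraries that chose them, and 2.14, 2.18 and 2.17 in the libraries held out. The held-out ratio was above 1 at 549 of 557, 555 of 563 and 539 of 543 peaks, and at least 2 at 58.9%, 59.9% and 60.6% of them. Over all peaks of at least 10 CPM, the same pairs of libraries gave a median ratio of 0.999, 1.002 and 1.003, and 3.25%, 3.31% and 3.15% were at least 2. The held-out ratios were thus slightly below those of the choosing libraries and far above those of all peaks. All peaks were not matched to the chosen ones by level, and those between 10 and 15 CPM had a median ratio of 1.24 as a whole. A part of the ratio that follows the level would recur in each held-out pair, and its size was not tested. Each held-out ratio rests on 1 library per group and has no error of its own. The labels do not say whether the replicates were separate cultures or the knockout 1 clone. The held-out libraries may therefore be technical repeats of those that chose the peaks. The peak set itself is shared by all 6 libraries, and how it was built from them is not given in the sources used here.

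**Figure D3:**
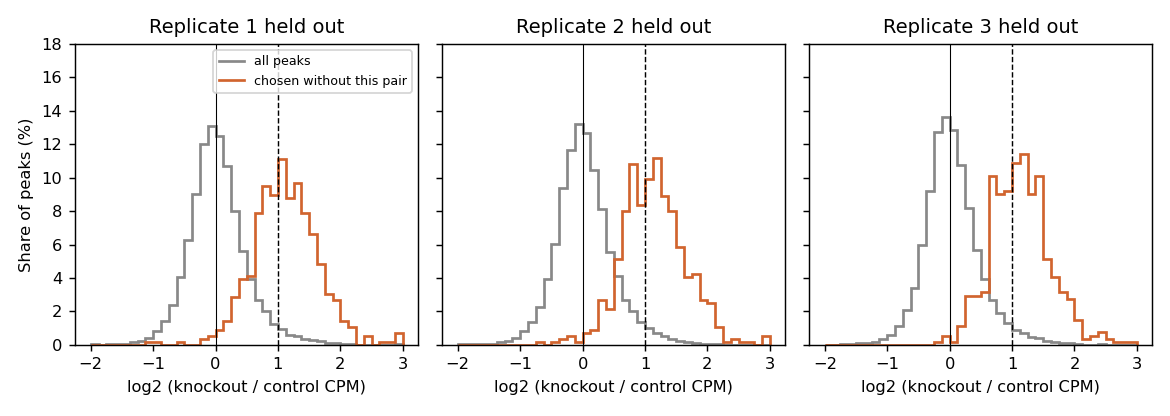
Distribution of log2 (knockout / control CPM) in the replicate pair held out, for peaks chosen without that pair (orange; 557, 563 and 543 peaks) and for all peaks of at least 10 CPM (grey). The vertical axis is the share of peaks in %, the dashed line marks 2-fold, and values beyond the axis are counted in the outermost bins. The medians of the chosen peaks were 2.14, 2.18 and 2.17 on the linear scale.

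The 11 peaks whose ratio reached 4 were weak in every control library. The highest ratio belonged to the peak at chr3:115387849-115389214, with 1.55, 3.04 and 5.39 CPM in control replicates 1 to 3 and 16.1, 25.5 and 18.1 CPM in knockout replicates 1 to 3. The rule fixes that all 3 knockout libraries lay above all 3 control libraries, and the control values rest on only 8, 14 and 34 reads. Mean levels were 3.33 ± 1.94 CPM in control and 19.9 ± 5.003 CPM in knockout libraries (SD, n = 3 each), so the ratio was 5.98. No other peak lay within 261 kb of it.

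On chromosome 2, a pair of peaks from 59318690 to 59320153 and from 59321714 to 59324083 had ratios of 4.42 and 5.13. The first stood at 5.03, 5.64 and 5.07 CPM in control replicates 1 to 3 and at 20.6, 23.5 and 25.5 CPM in knockout replicates 1 to 3. The second went from 4.67 ± 1.39 to 24.0 ± 4.19 CPM (SD, n = 3 each). They sit next to a much stronger gained peak from 59305584 to 59311146, which went from 36.2 ± 4.43 to 124 ± 8.16 CPM, a ratio of 3.43. The 3 peaks are adjacent in the table and span 18.5 kb, and each was chosen for its gain.

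Chromosome 13 gave 3 of the 12 highest ratios, at places far apart. The peak from 53671130 to 53672826 went from 9.56 ± 1.16 to 41.3 ± 3.34 CPM (ratio 4.32), and the peak from 13673780 to 13674861 from 5.04 ± 0.599 to 20.4 ± 6.14 CPM (ratio 4.06; SD, n = 3 each). The peak from 73391131 to 73393525 stood at 9.29, 8.46 and 9.83 CPM in the control libraries and at 32.5, 36.7 and 48.5 CPM in the knockout libraries. Its direct neighbour, from 73393532 to 73400184, went from 25.1 ± 1.61 to 75.6 ± 4.99 CPM. The 2 peaks all but touch, with ratios of 4.27 and 3.02, and each was chosen for its gain.

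The other 6 of these 12 peaks lay on chromosomes 8, 17, 9, 1 and 2. On chromosome 8 the peak from 90994079 to 90995273 had a ratio of 4.79, on chromosome 17 the peak from 46755209 to 46757128 one of 4.73, and on chromosome 9 the peak from 47973422 to 47975569 one of 4.64. The peaks at chr1:64335374-64336545 and from 191841936 to 191843647 had ratios of 4.61 and 3.94, and the peak at chr2:75618383-75620395 one of 4.13. Their control means were 3.78 to 6.37 CPM and their knockout means 17.4 to 29.5 CPM. The control means of all 12 peaks lay below 10 CPM, so they passed the 10 CPM limit only through the knockout libraries. Ranking by the ratio favours low control levels, so nothing is read from them. The counting error of such control values is large beside the values themselves.

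The strongest gained peaks were wide, and their control levels lay well above the 30.6 CPM median of all peaks. Per length they were not densely acetylated in control organoids. The 6 with the highest knockout levels each lay below the control median of all peaks, 11.8 CPM per kb. The peak at chr12:109622035-109636708, at 14674 bp the widest of the 530, had the highest level in both groups. It stood at 115, 127 and 131 CPM in control replicates 1 to 3 and at 301, 267 and 302 CPM in knockout replicates 1 to 3. The means were 124 ± 8.55 and 289.9 ± 19.5 CPM (SD, n = 3 each), a ratio of 2.33. A peak shortly before it, from 109604007 to 109613702, went from 86.4 ± 8.08 to 195 ± 4.90 CPM.

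Knockout levels between 166 and 205 CPM were found at 4 more peaks, on chromosomes 8, 7, 9 and 4. The peak at chr8:90970134-90979910 went from 98.9 ± 5.46 to 205 ± 8.68 CPM (SD, n = 3 each). The peak at chr7:56580155-56589023 went from 77.6 ± 9.12 to 193 ± 10.3 CPM, and the nearest other peak was 39.6 kb away. On chromosome 9 the peak from 57978979 to 57989744 stood at 81.7, 84.8 and 84.0 CPM in the control libraries and at 189, 181 and 193 CPM in the knockout libraries. The libraries of each group were close there. The peak at chr4:148056377-148064903 had a ratio of 2.03 and went from 81.5 ± 6.47 to 166 ± 15.1 CPM. Of the 3 widest gained peaks the remaining one, 13892 bp at chr9:45135951-45149842, went from 63.6 ± 6.34 to 162 ± 8.78 CPM.

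At the threshold the peaks on either side were alike. The 5 peaks just inside had ratios of 2.001 to 2.005, such as the peak at chr9:55936764-55940009 with 27.9, 28.2 and 27.6 CPM in the control libraries and 42.0, 59.9 and 65.8 CPM in the knockout libraries. The 4 others just inside lay at chr3:137634497-137636544, at chr9:61185562-61188665, at chr4:95330248-95331892 and at chr6:34299492-34301007. Just outside, the peak at chr10:20817616-20823007 went from 66.8 ± 2.95 to 134 ± 17.5 CPM and missed 2-fold only in the decimals. The other 4 just outside, on chromosomes 2, 19, 13 and 6, had ratios of 1.994 to 1.998. Between 1.9 and 2 there were 110 peaks with the groups apart, and between 2 and 2.1 there were 95 of the 530, so the number of gained peaks moves with the exact threshold.

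The gained peaks lay on each of the 18 autosomes compared and on X. Their share of the peaks of at least 10 CPM ran from 1.17% on chromosome 17, with 12 peaks, to 3.98% on chromosome 13, with 31. Chromosome 1 had the most, 48 of 1388 or 3.46%, followed by chromosome 8 with 44. On X there were 3, or 2.21% of 136. Whether these shares differ between chromosomes was not tested.

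Many gained peaks had another gained peak next to them. With members at most 1 Mb apart joined into a neighbourhood, the 530 peaks fell into 281 neighbourhoods: 169 held a single gained peak, 62 a pair and 50 held 3 or more. Those 50 hold 237 of the 530, and the 22 with at least 5 hold 139. Each neighbourhood runs from its first to its last gained peak, so peaks beyond its ends are not counted in it. An adjacent peak in the table was also gained for 185 of the 530, or 34.9%. The peak nearest to a gained peak was itself gained in 27.9% of cases, while the peak nearest to any other peak of at least 10 CPM was gained in 1.73%. Others stood alone: 97 of the 530, or 18.3%, had no other peak within 50 kb, against 9.11% of all peaks. All peaks were not matched to the gained ones by level, and the median mean level was 19.4 CPM for gained and 30.4 CPM for all peaks. Whether the share alone follows the level was not tested. These shares are descriptions of 1 set of libraries, and neighbouring peaks can be pieces of 1 acetylated stretch.

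Peaks that missed the rule but lay near a gained peak were called higher more often than peaks farther away, though most were not called. Within 50 kb of a gained peak there were 1036 other peaks of at least 10 CPM, with a median ratio of 1.18. Of these, 331 or 31.9% were called higher and 13 or 1.25% lower by edgeR (quasi-likelihood test, Benjamini-Hochberg adjusted p under 0.05), against 11.2% and 8.90% of all peaks tested. Of the 19269 peaks farther away, 7.70% were called higher and 9.57% lower, with a median ratio of 0.984. They come from the same contrast as the choice of the gained peaks and are given without a test of the difference.

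**Figure D4:**
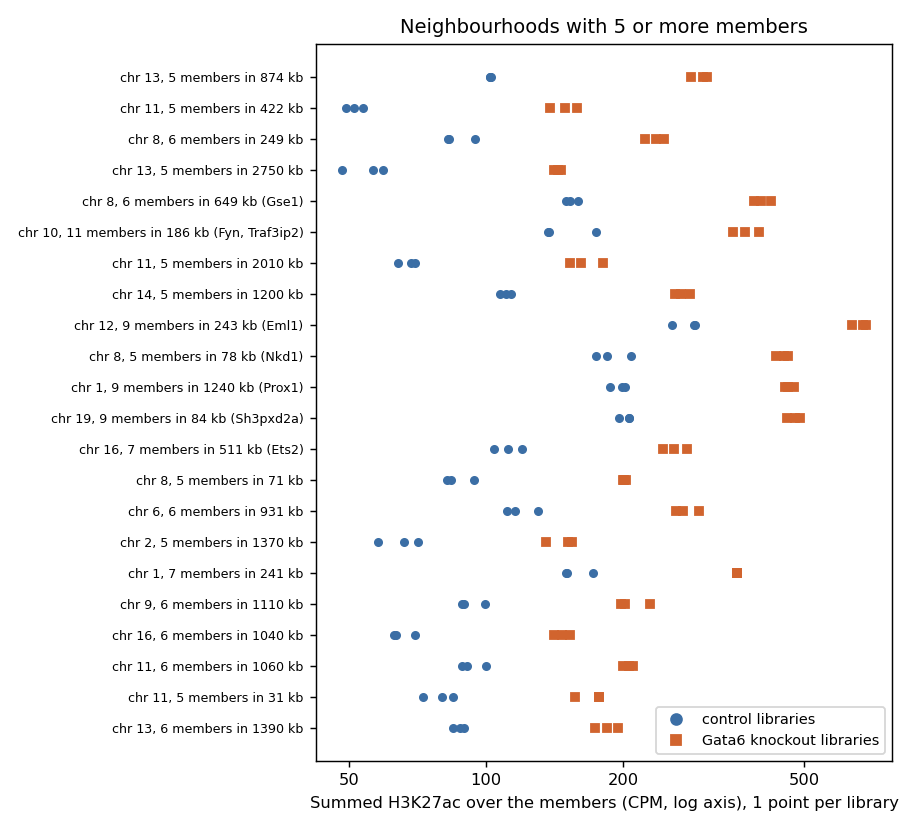
Summed H3K27ac over the gained peaks of the 22 neighbourhoods with at least 5 of them, 1 point per library (horizontal, CPM, log axis; circles control, squares knockout), ordered by ratio. In each row the 3 knockout libraries lie above the 3 control libraries, as the choice of the peaks fixes. Gene names are from general knowledge of the mouse map.

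Peaks are named here by position, as chromosome, start and end in mm9. Gene names do not stand in the peak table, and no annotation of mm9 was used here. For 7 of the 22 neighbourhoods a gene of the neighbourhood is named below from general knowledge of the mouse gene map, at the 1-Mb scale only. The plan gave gene names only with an annotation of mm9, so these names lie outside it and followed no rule. They do not describe the genes near the gained peaks as a set. The chromosome of each of the 8 genes was checked against a RefSeq table of GRCm38.p6. Which peak lies in which gene was not measured, and no peak is assigned to a promoter. Beside the calls counted in the neighbourhoods below stand 11.2% called higher and 8.90% called lower over all peaks off chromosome 5.

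The neighbourhood richest in gained peaks lay at chr10:39089448-39275776, the region of Fyn, a Src family tyrosine kinase, and its neighbour Traf3ip2, an adaptor of interleukin 17 receptor signalling. It held 11 gained peaks among 13, and the other 2 had ratios of 1.95 and were called higher too. The summed level of the 11 was 174, 137 and 138 CPM in control replicates 1 to 3 and 399, 372 and 349 CPM in knockout replicates 1 to 3, a ratio of 2.49. Control replicate 1 was the highest of its group. That every knockout library lay above it is fixed by the choice of the peaks. The highest ratios belonged to adjacent peaks in the middle, from 39203905 to 39206047 (9.68, 9.11 and 8.88 CPM in control against 31.7, 31.9 and 26.2 CPM in knockout libraries) and from 39206711 to 39211472 (25.1 ± 3.74 to 78.6 ± 11.1 CPM; SD, n = 3 each). Between the first and the last gained peak of this 186 kb stretch, nearly every peak was thus gained. The stretch begins and ends at a gained peak by definition, so its share of gained peaks is partly set by that choice. The adjoining peaks on either side were not gained: the one before went from 30.4 to 33.5 CPM, and the one after, stronger than any in the stretch, from 284 to 342 CPM.

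At chr19:47446645-47530329, the region of Sh3pxd2a, which encodes the Tks5 scaffold of invadopodia, the matrix-degrading protrusions of invasive cells, 9 of 12 peaks were gained. Their sum was 206, 206 and 196 CPM in control and 489.7, 478 and 458 CPM in knockout libraries. The control libraries were nearly equal, and the ratio was 2.34. The highest ratio, 2.999, was found from 47519611 to 47521712, where the mean went from 12.6 ± 2.16 to 37.9 ± 3.26 CPM. The strongest peak in control, from 47476138 to 47484142, was not among the 9: it went from 94.6 ± 6.87 to 131 ± 9.81 CPM, a ratio of 1.39. Its ratio was thus below those of the 9 weaker peaks around it, as the choice of the peaks fixes. In CPM its rise was not small beside theirs.

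At chr12:109523486-109766368, the region of Eml1, a microtubule-associated protein, 9 of 12 peaks were gained and their sum, the highest of the 22 neighbourhoods, went from 277 ± 17.5 to 666 ± 24.6 CPM (SD, n = 3 each). Most of it came from the pair of wide peaks described above. Between them a narrow peak from 109619598 to 109621583 went from 7.23 ± 1.21 to 25.9 ± 5.21 CPM, the highest ratio of the stretch at 3.58. The 4 gained peaks at the far end, from 109708642 to 109766368, were weak in control and summed to 43.5 ± 3.59 CPM there and to 117 ± 9.55 CPM in the knockout. Of the 3 peaks of the stretch that were not gained, 2 were called higher, and the weak peak from 109599899 to 109601960 was not called, with 10.6 ± 1.85 CPM in control and 14.9 ± 4.24 CPM in knockout libraries.

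**Figure D5:**
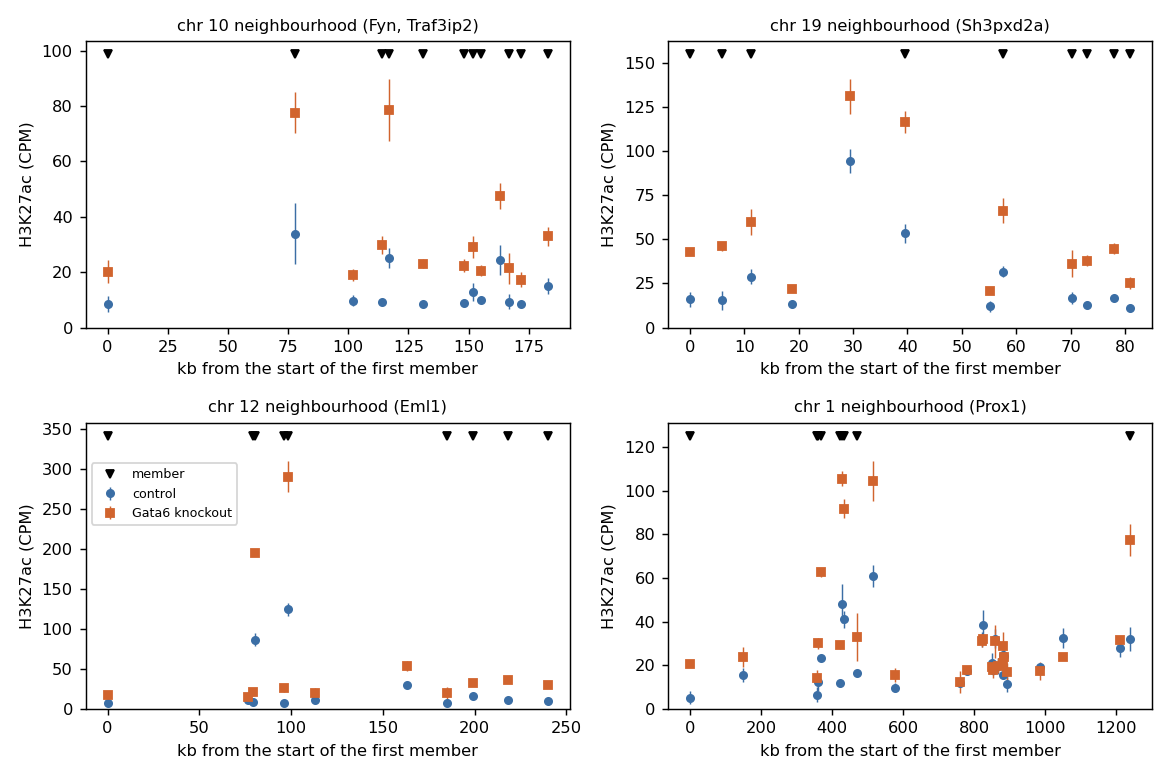
H3K27ac at each peak of 4 neighbourhoods by distance from the start of the first gained peak (horizontal, kb; vertical, CPM; mean and SD of 3 libraries; circles control, squares knockout). Triangles mark the gained peaks, which are 11 of 13, 9 of 12, 9 of 12 and 9 of 27 peaks.

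At chr1:191841936-193084220, the region of Prox1, a homeobox transcription factor, 9 of 27 peaks were gained. The gain was not even along this 1240 kb stretch. It was concentrated in 7 adjacent gained peaks from 192198838 to 192315715, the longest unbroken run among the 530, whose summed level was 159 ± 2.57 CPM in control and 366 ± 13.9 CPM in knockout libraries (SD, n = 3 each). The highest ratio of the run, 2.70, was at the peak from 192211592 to 192216931, with 22.8, 24.7 and 21.9 CPM in the control libraries and 60.8, 65.0 and 61.9 CPM in the knockout libraries. Of the 18 peaks that were not gained, 2 were called higher and 1 lower. Over all peaks off chromosome 5, 11.2% were called higher and 8.90% lower, so nothing is read from these counts.

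Chromosome 8 held 4 of the 22 neighbourhoods. From 90970134 to 91047761, the region of Nkd1, an inhibitor of Wnt signalling that is itself induced by the pathway, 5 of 6 peaks were gained and the other one was called higher. Their sum was 184, 175 and 208 CPM in control and 452, 434 and 461 CPM in knockout libraries, a ratio of 2.37. Besides the strong peak at 90970134, the peak from 91006090 to 91013447 stood out, with 50.7, 50.7 and 53.0 CPM in control and 146, 139 and 145 CPM in knockout libraries. The libraries of each group hardly differed there, and the ratio was 2.78.

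At chr8:122689786-123338636, the region of Gse1, a coiled-coil protein found with histone deacetylase complexes, 6 of 32 peaks were gained and 11 more were called higher. The share called higher over all peaks off chromosome 5 was 11.2%. The peak from 122845904 to 122849888 stood at 17.4, 16.7 and 13.3 CPM in control and at 57.7, 50.3 and 74.0 CPM in knockout libraries, a ratio of 3.84. A wider peak close by, from 122858201 to 122867250, went from 53.4 ± 7.63 to 159 ± 11.6 CPM (SD, n = 3 each). Toward the far end most peaks had ratios near 1, so the gain was densest in the first part of the stretch.

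The other 2 neighbourhoods of chromosome 8 were compact. From 106335881 to 106406899 all 5 peaks were gained, with a sum of 82.1, 83.7 and 94.2 CPM in control and 199.7, 201 and 203 CPM in knockout libraries. From 96634402 to 96883097, 6 of 13 peaks were gained, 5 of them adjacent within 18 kb, where the sum went from 79.6 ± 8.50 to 219 ± 10.9 CPM. In the same neighbourhood the peaks from 96815682 to 96819103 and from 96824384 to 96829690 were called lower, at 0.699 and 0.658 times control. Gains and losses thus lay in the same 249 kb. The share called lower over all peaks off chromosome 5 was 8.90%.

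At chr16:95994418-96505677, the region of Ets2, a transcription factor of the ETS family, 7 of 21 peaks were gained and 11 more were called higher (edgeR, adjusted p under 0.05). That test called 11.2% of all peaks off chromosome 5 higher. The gained peak with the highest level, from 96066198 to 96072306, stood at 43.8, 47.7 and 53.3 CPM in control and at 122, 112 and 100.5 CPM in knockout libraries. The highest ratio, 2.81, was at the weak peak from 96120748 to 96122569, with 7.74 ± 1.48 and 21.8 ± 1.045 CPM (SD, n = 3 each). Over all 21 peaks the sum went from 683 ± 25.3 to 1086 ± 22.1 CPM, a ratio of 1.59.

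Not every neighbourhood moved as a whole. At chr13:53671130-56424635, 5 of 61 peaks were gained while 10 others, or 16.4% of the 61, were called lower, against 8.90% of all peaks off chromosome 5, and the sum of all 61 went from 2682 ± 49.7 to 2450.0 ± 45.1 CPM. At chr11:58982196-60991427, 5 of 72 were gained and 5 were called lower, or 6.94%, which is below that background, and the sum of all 72 had a ratio of 0.972. At chr13:73391131-74265319, the 5 gained peaks sat at the ends, where their sum went from 102 ± 0.369 to 297 ± 12.02 CPM, and 5 of the 26 peaks in the stretch, or 19.2%, were called lower.

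At chr1:94669297-94910071, gains flanked a block of peaks near their control level. The 7 gained peaks summed to 151, 172 and 150 CPM in control and to 357, 357 and 357 CPM in knockout libraries. Between them, within the same 241 kb, 5 adjacent peaks from 94803111 to 94849246 had ratios of 0.869 to 1.09.

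In the remaining 9 neighbourhoods with at least 5 gained peaks, the ratio of the summed gained peaks was 2.11 to 2.89. The highest of them lay at chr11:108527311-108949350, with 5 of 24 peaks gained and 11 more called higher (11.2% over all peaks off chromosome 5). Compact among them was the stretch at chr11:82640187-82671380, with 5 of 6 peaks gained within 31.2 kb and a sum of 72.8, 84.6 and 80.1 CPM in control against 177, 177 and 157 CPM in knockout libraries. The others lay at chr2:166480700-167853495, at chr6:51561494-52492266, at chr9:74177327-75284813, at chr11:52829298-53887280, at chr13:28516331-29906872, at chr14:55368104-56565478 and at chr16:29892978-30936340. In these 9 the gained peaks were 5 or 6 of 6 to 67 peaks.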

How the data were processed

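For the 6 H3K27ac libraries the deposited values are unnormalized counts of reads in each peak. The submitters' processing notes name the build mm9 and the tools Bowtie, SAMtools, Picard, bedtools and SEACR without roles. How peaks were merged and reads counted is not given in the sources used here. Between 82.8% and 88.9% of the counts per library were even, as when both mates of a pair are counted, so the counting error is wider than the counts imply. Peak widths are the lengths in the deposited table, in bp, an other kind of value than the counts.

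Counts were divided by each library's sum over peaks off chromosome 5 to give CPM. Rule, neighbourhoods and held-out pairs were computed with pandas 2.3.3. Calls came from edgeR 4.0.16 in R 4.3.3 over all peaks off chromosome 5 (TMM factors, quasi-likelihood test with group as the only term, two-sided, Benjamini-Hochberg adjusted p under 0.05), checked on simulated data. Alternatives were DESeq2 1.42.0, other scalings, trended offsets (loess, span 0.3), other limits, leaving out libraries and a replicate block. Named peaks were the 12 highest ratios, the 6 highest knockout levels, the 5 peaks on either side of the threshold, the 3 widest, the control extremes and the neighbourhoods with 5 or more gained peaks. Members, lists and rules were chosen with earlier results of these data known. Planned gene lists needed an mm9 annotation and were not run.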

Additional observations from a re-analysis of the deposited data

How the results depend on the processing

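Gained peaks numbered 350 with trended offsets, 342 of them among the 530, and 247 with a minimum of 20 CPM. With the column sum taken over chromosome 5 too, with TMM or DESeq2 size factors, with no minimum and with overlapping groups allowed they numbered 519 to 555. Without 1 library at a time they numbered 510 to 559, which shared 87.4% to 90.0% of the 530. Their median width, 2170 bp, became 2620.5 bp with trended offsets and 2962 bp with a minimum of 20 CPM. By edgeR, 472 of the 530 were called with trended offsets (11.0% of all peaks called higher) and all 530 by DESeq2 (11.7%). The 76 losses became 71 to 103, the last with trended offsets, added after the data were seen. Neighbourhoods with 3 or more gained peaks numbered 34 with gaps of at most 0.25 Mb, 39 in fixed 1-Mb windows and 37 with trended offsets, in place of 50. Over all peaks off chromosome 5, edgeR called 2347 higher and 1857 lower, 1941 to 2067 and 1411 to 1612 with a library left out. The labels do not pair same-numbered libraries, and their deviations from the group means correlated at 0.00441 to 0.0657; with the number as a replicate block, 2413 peaks were called higher and 1950 lower. At the median gained peak, control libraries held 54 to 74 reads, which limits the precision of single ratios.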
